A study of Mus musculus with 11 samples.

Results

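Messenger RNA of 10 chemokine genes was followed in cultured mouse cells labelled as cavernous endothelial cells, the lining cells of the blood spaces in the corpus cavernosum of the penis. The genes are the ligand Cxcl12, its receptors Cxcr4 and Ackr3, and the ligands Cxcl1, Cxcl5, Cxcl10, Cxcl16, Ccl2, Ccl5 and Ccl7. They were taken by gene symbol, and all 10 were found among the 23238 genes of the deposited files, in each of 11 libraries. All cells came from mouse corpus cavernous tissue, grew in M199 medium with serum, antibiotics and heparin, and were treated for 5 days. Normal glucose had 3 libraries, high glucose alone had 4, and high glucose together with Hsp70, a heat shock chaperone protein, had 4. How much glucose or Hsp70 was used, and in what form Hsp70 was added, is not in the labels, which also name no strain, age or number of animals. Nothing in them says that replicates were separate cultures or animals, so a p-value here measures only the spread between these libraries. A set number in each file name groups the libraries further: 1 per group in each of sets 3, 4 and 5, and in set 2 a single pair, high glucose without and with Hsp70, and none in normal glucose.

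Chemokines are small secreted proteins that direct cell movement through receptors coupled to G proteins. Cxcl12 acts through Cxcr4 and retains or recruits progenitor and immune cells, while Ackr3, also known as Cxcr7, binds Cxcl12 and removes it. In blood vessels this axis is known for its part in vessel growth and repair. Cxcl1 and Cxcl5 draw neutrophils through Cxcr2, Cxcl10 draws activated T cells through Cxcr3 and is induced by interferon, and Cxcl16 binds Cxcr6. Ccl2 and Ccl7 draw monocytes through Ccr2, and Ccl5 draws T cells and monocytes.

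On mouse build GRCm38, with GENCODE release M21, Cxcl12 lies on chromosome 6 (117168535 to 117181367) and Cxcr4 and Ackr3 lie on chromosome 1 (128588199 to 128592293 and 90203980 to 90216751). Cxcl5, Cxcl1 and Cxcl10 share chromosome 5 (starts at 90759360, 90891241 and 92346638). Ccl2, Ccl7, Ccl5 and Cxcl16 share chromosome 11 (starts at 82035571, 82045712, 83525778 and 70453983). The RefSeq promoter table held 5 of the 10 genes: Cxcl12, Cxcr4, Ackr3, Cxcl1 and Cxcl10. The 250 bases before the start site of 3 of them follow, because their levels across the libraries differed in kind, as described below. Capitals mark matches to 2 motifs, searched on both strands. The NF-kB form GGANNTTCC was present in 3.59% of the 32851 promoter windows of this length, and the interferon regulatory factor (IRF) core AANNGAAA in 21.3%.
Cxcl1, chr5:90890995-90891244, plus strand: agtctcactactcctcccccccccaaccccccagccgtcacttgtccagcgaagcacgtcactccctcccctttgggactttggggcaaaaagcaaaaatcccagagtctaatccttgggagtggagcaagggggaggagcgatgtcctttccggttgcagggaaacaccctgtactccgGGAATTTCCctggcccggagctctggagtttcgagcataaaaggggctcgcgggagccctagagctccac
Cxcl10, chr5:92348890-92349139, minus strand: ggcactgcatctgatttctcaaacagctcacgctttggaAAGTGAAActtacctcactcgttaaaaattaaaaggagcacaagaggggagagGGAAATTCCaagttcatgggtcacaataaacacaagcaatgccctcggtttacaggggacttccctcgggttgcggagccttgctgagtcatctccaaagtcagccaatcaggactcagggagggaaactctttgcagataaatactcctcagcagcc
Cxcl12, chr6:117168285-117168534, plus strand: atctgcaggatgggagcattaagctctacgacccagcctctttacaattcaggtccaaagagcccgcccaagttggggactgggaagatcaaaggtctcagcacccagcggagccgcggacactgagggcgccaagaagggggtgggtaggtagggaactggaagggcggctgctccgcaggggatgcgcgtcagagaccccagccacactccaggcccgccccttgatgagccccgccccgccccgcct
The Cxcl1 window held 1 NF-kB match, GGAATTTCC, which reads as a match on both strands and begins 70 bases before the start site, and no IRF core. The Cxcl10 window held the IRF core AAGTGAAA 211 bases before the start and 1 NF-kB match on both strands, GGAAATTCC, at 158 bases. The windows of Cxcl12, Cxcr4 and Ackr3 held neither motif in these letters. A match is a description of the sequence and no measured site.

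Summed normalized counts lay between 24.79 M and 27.81 M per library, and the 10 genes took 0.168% to 0.343% of them. The same 2753 genes were listed at 0 in all 6 libraries of sets 4 and 5 and no other gene was at 0 in any of them, unlike in sets 2 and 3. Whether these sets were processed apart, which would touch levels compared across sets, was not tested. The libraries did not carry a typical endothelial profile. The 14 endothelial markers summed to 440.1 to 674.4 normalized counts outside set 3 and to 2102 to 2285 in set 3, while the 10 fibroblast markers summed to between 4.102e+05 and 6.33e+05 in every library. Pecam1, an endothelial junction protein, had log2 levels of 8.86 to 9.07 in set 3 and of 2.68 to 4.51 in the other 8 libraries, and Cldn5, a tight junction protein of endothelium, did not exceed 0.24 there. In set 3, 11 of the 14 lay above all other libraries, but Flt1, Tek and Egfl7 overlapped with them. Outside set 3 Flt1 had log2 levels of 6.35 to 7.73, and Cdh5 of 5.68 to 8.26. The 17 leukocyte markers summed to 5044 to 6025 in set 3 and to 563.2 to 887.9 elsewhere. The Hsp70 library of set 4 also stood apart. Its deviations from the group mean correlated at 0.059 with those of the high glucose library of its set, against 0.262 to 0.691 in the other sets, and at 0.022 with those of the normal glucose library.

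**Figure D1:**
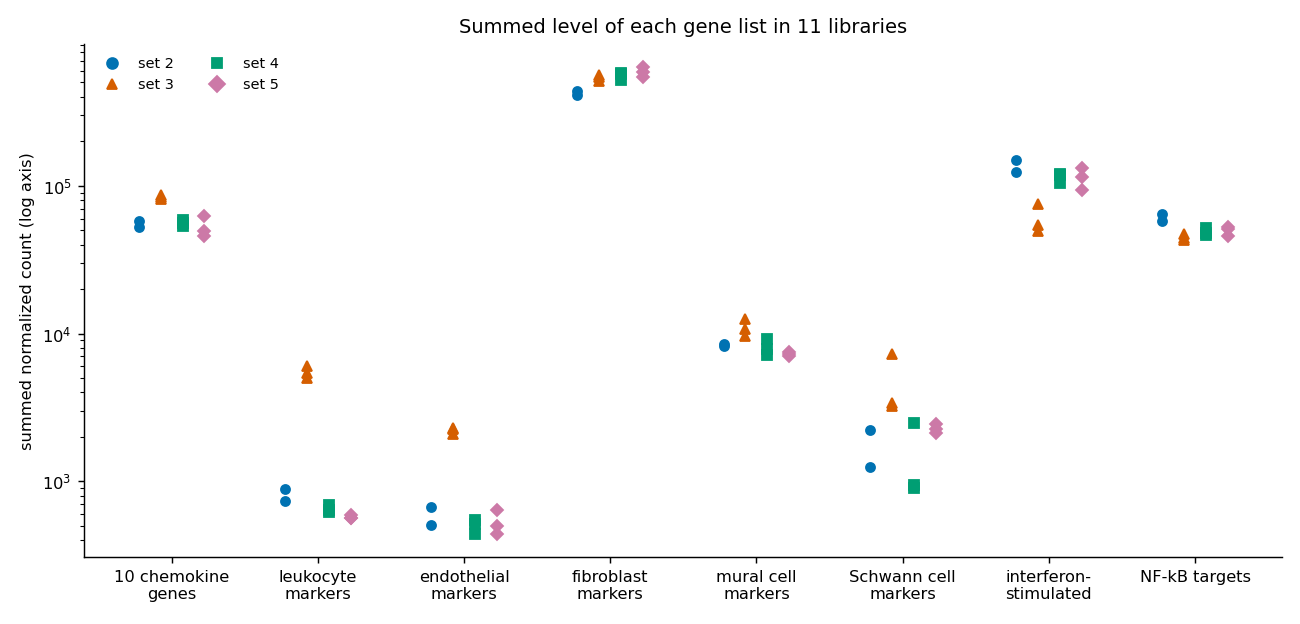
Summed normalized count (log axis) of the 10 chemokine genes and of 7 marker or pathway lists, 1 symbol per library, coloured by file set. Set 3 lies above the other sets for leukocyte markers (5044 to 6025 against 563.2 to 887.9) and for endothelial, mural cell and Schwann cell markers. It lies below them for interferon-stimulated genes (4.939e+04 to 7.504e+04 against 9.431e+04 to 1.499e+05).

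The monocyte chemoattractant Ccl2 had the highest level per kb of exon of the 10 genes in the 8 libraries outside set 3. In the 3 libraries of set 3 Cxcl5 led, with normalized counts per kb of 18589 to 23491 against 13514 to 15431 for Ccl2. Per kb of exon, the median normalized count over 11 libraries was 15430 for Ccl2, 10760 for Ccl7, 5995 for Cxcl5, 1375 for Cxcl1 and 1290 for Cxcl12. It was 731 for Cxcl16, 370 for Cxcl10, 99.3 for Ackr3 and 67.9 for Ccl5, and 2.11 for Cxcr4, the classical receptor of Cxcl12. Exon length was the union over all annotated transcripts, 8176 bases for Cxcl12 and 1875 for Cxcl1, and the order can depend on that choice. Which transcripts were expressed was not tested. Some neighbours in this order overlapped. Ccl2 exceeded Ccl7, Cxcl5 exceeded Cxcl1, and Ccl5 exceeded Cxcr4 in 11 of 11 libraries, whereas Cxcl1 exceeded Cxcl12 in 6 of 11 and Ccl7 exceeded Cxcl5 in 8 of 11. Of the Cxcl12 axis, the ligand thus had the highest median, followed by Ackr3 and then Cxcr4.

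**Figure D2:**
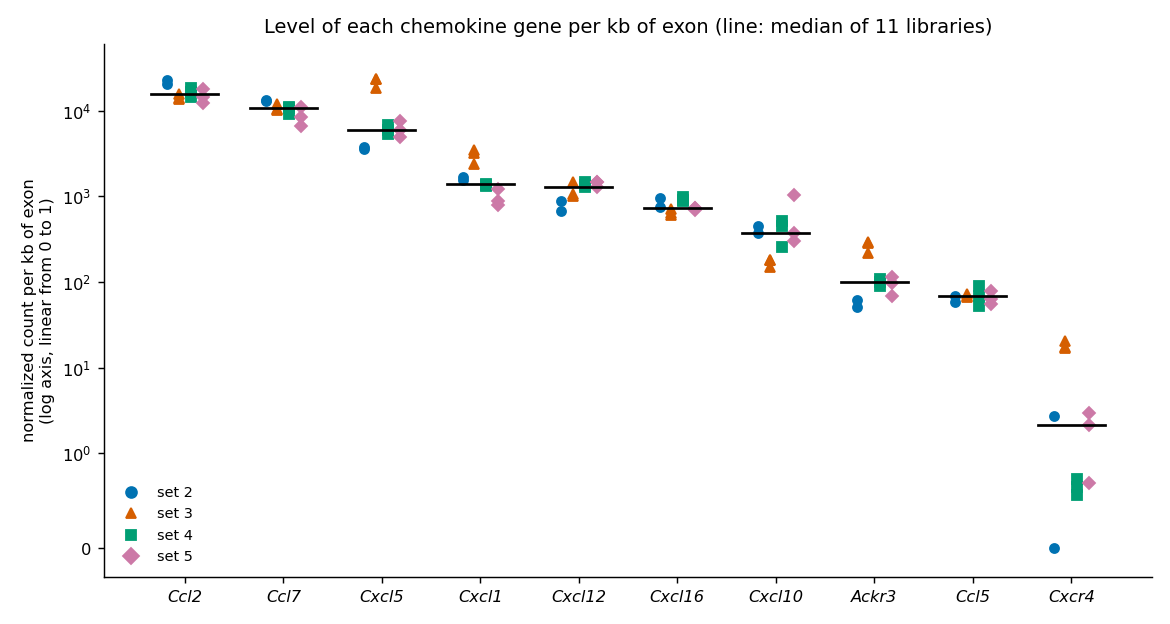
Normalized count per kb of exon on a log axis (linear below 1) for each of the 10 genes, 1 symbol per library, coloured by set, with a line at the median. Ccl2 has the highest median (15430) and Cxcr4 the lowest (2.11), and the set 3 triangles stand above the other libraries for Cxcl5, Cxcl1, Ackr3 and Cxcr4.

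No member was called different between any 2 of the 3 groups. In limma, with Benjamini-Hochberg adjustment over 18248 genes tested, 0 of 10 members passed an adjusted p of 0.05 in each comparison, where 0% of all genes did, and each member's adjusted p was 1. No member had an unadjusted p under 0.05, against 185, 136 and 178 of all genes for high against normal glucose, Hsp70 against high glucose and Hsp70 against normal glucose. All differences are log2 differences, those given with an SE come from limma, and a bulk library cannot tell apart fewer cells of a type and less RNA per cell. For high against normal glucose 7 members lay above 0 and 3 below, with a median of 0.06 against -0.0085 over all genes tested. For Hsp70 added to high glucose all 10 lay below 0, with a median of -0.15 against 0.0029. Ackr3 was the exception under quantile normalization and under median centring (0.01 each), which left 9 of 10. Leaving out the high glucose library of set 3, or the Hsp70 library of set 2, left 6 of 10 below 0. Leaving out the Hsp70 library of set 4 left 8, and that of set 5 left 7. With sample weights, or in sets 2 and 3 only, 7 lay below 0, and in sets 4 and 5 only 8 did. For Hsp70 against normal glucose 8 lay below 0 and 2 above, with a median of -0.08 against -0.0040. The Hsp70 comparisons share the Hsp70 libraries, and the high glucose comparisons the high glucose libraries, so these counts are not independent of each other. Nor are the members within a count, as Ackr3 and Cxcl5 correlated at 0.988 over the 11 libraries.

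**Figure D3:**
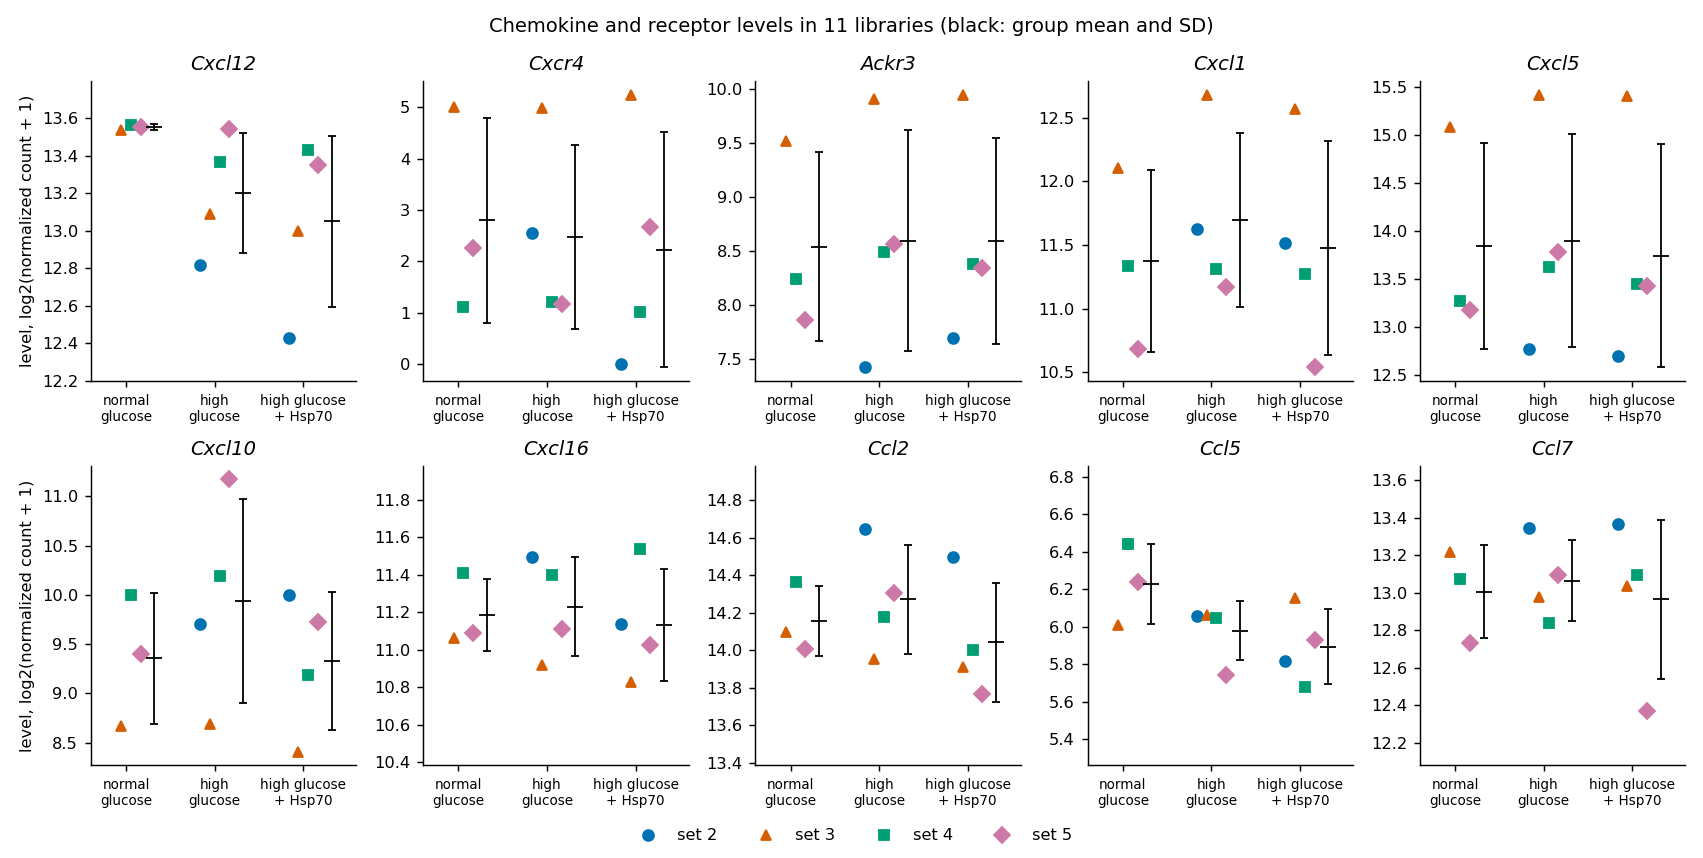
Level of each of the 10 genes as log2(normalized count + 1) by group, 1 symbol per library with its file set in colour and shape, and the group mean and SD in black. Cxcl12 lies between 13.54 and 13.57 in normal glucose and spreads down to 12.81 and 12.43 in the high glucose groups, and the set 3 triangles are the highest of every group for Cxcr4, Ackr3, Cxcl1 and Cxcl5.

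Cxcl12 was at nearly 1 level in normal glucose and spread downward in both high glucose groups. Its log2 level in normal glucose was 13.54, 13.57 and 13.56 in sets 3, 4 and 5, a mean of 13.55 ± 0.0155 (SD, n = 3). In high glucose it was 12.81, 13.09, 13.36 and 13.54 in sets 2 to 5 (13.20 ± 0.319, SD, n = 4), and with Hsp70 it was 12.43, 13.00, 13.43 and 13.35 (13.05 ± 0.456, SD, n = 4). All 4 Hsp70 libraries lay below all 3 normal glucose libraries, a separation that 1.24% of all genes showed in that direction and that no other member showed. The high glucose libraries overlapped normal glucose only through set 5. Within sets, the high glucose library was below its normal glucose partner by 0.45, 0.20 and 0.01 in sets 3, 4 and 5, and the Hsp70 library by 0.54, 0.14 and 0.20.

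The fitted differences for Cxcl12 were -0.35 (SE 0.244) for high against normal glucose and -0.50 (SE 0.244, 95% interval -1.03 to 0.03, unadjusted limma p 0.0624, adjusted p 1) for Hsp70 against normal glucose. Hsp70 against high glucose gave -0.15 (SE 0.226), and the set 4 pair went the other way (0.06). The 2 lowest levels were those of set 2, which has no normal glucose library. Without the Hsp70 library of set 2 the difference from normal glucose was -0.29 (SE 0.205). With file set as a replicate block it was -0.33 (SE 0.134, unadjusted limma p 0.0343, adjusted p 1), 1 of 2 members under an unadjusted p of 0.05 in that fit, where 3.22% of all genes were. In sets 3, 4 and 5 alone, with that block, it was -0.29 (SE 0.136, 95% interval -0.61 to 0.02, unadjusted limma p 0.065). That last fit was added after the data were seen. The difference stayed below 0 under all 26 alternatives tried, and no call was made under any of them. Some of these, such as other filters or leaving out a high glucose library, cannot change this estimate.

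Cxcr4, the signaling receptor of Cxcl12, was near the limit of detection outside set 3. Its normalized counts were 30.6 to 36.9 in the 3 libraries of set 3 and 0 to 5.33 in the other 8, the 0 being the Hsp70 library of set 2. In sets 4 and 5 the log2 levels were 1.01 to 2.66. With normalized counts of 1 to 5 in most libraries outside set 3, the differences among groups had SEs of 1.25 to 1.35. Their intervals reached from -3.52 to 2.63. How many reads lie behind these values is not given in the sources used here. Leukocytes express Cxcr4, and the leukocyte markers named above were raised in the same 3 libraries. So were the summed endothelial, mural cell and Schwann cell markers. The part of any of these cell types in the Cxcr4 level was not tested.

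Ackr3, the receptor that clears Cxcl12, was better measured. Its log2 level in sets 3, 4 and 5 was 9.53, 8.24 and 7.86 in normal glucose. It was 7.42, 9.91, 8.50 and 8.57 in sets 2 to 5 in high glucose, and 7.70, 9.95, 8.38 and 8.35 with Hsp70. The groups overlapped, set 3 being the highest of every group and set 2 the lowest of both high glucose groups. Within each set, however, both high glucose libraries stood above normal glucose: by 0.38, 0.26 and 0.71 without Hsp70 and by 0.43, 0.14 and 0.49 with it. The pooled difference of high from normal glucose was 0.06 (SE 0.623), and with file set as a replicate block it was 0.40 (SE 0.143, unadjusted limma p 0.0196, adjusted p 1). The blocked difference of Hsp70 from normal glucose was also 0.40 (SE 0.143, unadjusted limma p 0.0208, adjusted p 1), against 0.05 without the block. Hsp70 against high glucose was -0.0048 (SE 0.577) and changed sign between sets.

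Cxcl5, a neutrophil attractant, followed the same course. Its log2 level was 15.08, 13.27 and 13.18 in normal glucose in sets 3, 4 and 5. It was 12.77, 15.42, 13.62 and 13.78 in high glucose in sets 2 to 5, and 12.69, 15.40, 13.45 and 13.42 with Hsp70. Set 3 was again the highest of every group, and set 2 the lowest of both high glucose groups. Within sets 3, 4 and 5 high glucose exceeded normal glucose by 0.34, 0.36 and 0.60, and Hsp70 exceeded normal glucose by 0.32, 0.18 and 0.25. Within sets 2 to 5 the Hsp70 library was below its high glucose partner by 0.08, 0.02, 0.17 and 0.36. The pooled difference of high from normal glucose was 0.06 (SE 0.723), and the blocked one was 0.42 (SE 0.117, 95% interval 0.16 to 0.68, unadjusted limma p 0.00562, adjusted p 1). Cxcl5 and Ackr3 were the 2 members with an unadjusted p under 0.05 for high against normal glucose in the blocked fit, where 3.49% of all genes had one. Hsp70 against normal glucose for Cxcl5 turned from -0.10 pooled to 0.26 (SE 0.117, unadjusted limma p 0.0508, adjusted p 1).

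Cxcl1, the other neutrophil attractant with a receptor in Cxcr2, had log2 levels of 12.11, 11.33 and 10.69 in normal glucose in sets 3, 4 and 5. They were 11.63, 12.68, 11.31 and 11.17 in high glucose in sets 2 to 5, and 11.52, 12.57, 11.27 and 10.54 with Hsp70. Set 3 was highest in each group, and set 5 lowest. Hsp70 lay below high glucose by 0.11, 0.11, 0.04 and 0.63 in sets 2 to 5. The pooled difference was -0.22 (SE 0.456), and the set 5 pair was its largest part. High against normal glucose was 0.57, -0.02 and 0.49 in sets 3, 4 and 5, and 0.32 (SE 0.492) pooled.

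Cxcl10, the interferon-induced member, had the largest fitted difference of the 10 for high against normal glucose and for Hsp70 against high glucose. Its log2 level was 8.67, 9.9996 and 9.40 in normal glucose in sets 3, 4 and 5 (9.36 ± 0.666, SD, n = 3). In high glucose it was 9.71, 8.69, 10.19 and 11.17 in sets 2 to 5 (9.94 ± 1.04, SD, n = 4), and with Hsp70 it was 10.003, 8.41, 9.19 and 9.72 (9.33 ± 0.702, SD, n = 4). The high glucose library of set 5 was the highest of all 11, and set 3 was the lowest of every group. High glucose exceeded normal glucose by 0.02, 0.19 and 1.78 in sets 3, 4 and 5, and Hsp70 differed from high glucose by 0.30, -0.28, -1.0003 and -1.45 in sets 2 to 5.

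The fitted difference of Cxcl10 between high and normal glucose was 0.58 (SE 0.543) and that between Hsp70 and high glucose was -0.61 (SE 0.503, 95% interval -1.71 to 0.49, limma adjusted p 1). Without the high glucose library of set 5 the first was 0.17 (SE 0.491) and the second -0.20 (SE 0.46). Without the Hsp70 library of set 3 the second was -0.30 (SE 0.506), and without the high glucose library of set 3 it was -1.03 (SE 0.45). In sets 3, 4 and 5 alone, with the sets as a replicate block, it was -0.91 (SE 0.324, unadjusted limma p 0.024, adjusted p 0.999), a fit chosen after the data were seen. With all sets and the block, 0 of 10 members had an unadjusted p under 0.05 in this comparison, where 1.67% of all genes had one. Of the interferon-stimulated genes, the family Cxcl10 belongs to by its induction, 12 of 17 lay above 0 for Hsp70 against high glucose, with a median of 0.05 against 0.0029 over all genes tested, and 0 passed the limma test.

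Ccl2, the main monocyte chemoattractant, was high in every library. Its log2 level was 14.10, 14.37 and 14.01 in normal glucose in sets 3, 4 and 5. It was 14.65, 13.95, 14.18 and 14.31 in high glucose in sets 2 to 5, and 14.50, 13.91, 14.00 and 13.77 with Hsp70. The Hsp70 library lay below its high glucose partner in all 4 sets, by 0.15, 0.04, 0.18 and 0.54, and below its normal glucose partner in all 3, by 0.19, 0.36 and 0.24. The groups still overlapped, and set 2 was the highest of both high glucose groups. The pooled difference of Hsp70 from high glucose was -0.23 (SE 0.198, 95% interval -0.66 to 0.20, limma adjusted p 1), and it kept its sign under all 26 alternatives. Some of these, such as other filters or leaving out a normal glucose library, cannot change this estimate.

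Ccl7, whose gene neighbours Ccl2 and which shares its receptor Ccr2, did not repeat that order. Its log2 level ranged from 12.73 to 13.22 in normal glucose, from 12.84 to 13.35 in high glucose and from 12.37 to 13.37 with Hsp70. Hsp70 against high glucose was 0.02, 0.06 and 0.25 in sets 2 to 4 and -0.73 in set 5, for a pooled difference of -0.10 (SE 0.214).

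Ccl5, a T cell and monocyte attractant, was low, with log2 levels of 6.01 to 6.44 in normal glucose, 5.74 to 6.06 in high glucose and 5.68 to 6.16 with Hsp70. Its difference from normal glucose was -0.25 (SE 0.224) in high glucose and -0.34 (SE 0.224) with Hsp70. In both cases sets 4 and 5 lay below 0 and set 3 above. Cxcl16, a membrane-bound ligand that is shed by proteases, had group means of 11.19 ± 0.192 (SD, n = 3) in normal glucose, 11.23 ± 0.265 (SD, n = 4) in high glucose and 11.13 ± 0.297 (SD, n = 4) with Hsp70. The 95% interval of its difference was -0.39 to 0.47 for high against normal glucose and -0.50 to 0.30 for Hsp70 against high glucose.

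Counted by direction within sets, 3 of 10 members (Ackr3, Cxcl5 and Cxcl10) were higher in high than in normal glucose in every set, as were 11.3% of all genes. Only Cxcl12 among them was lower in every set, against 14.3% of all genes. For Hsp70 against high glucose 3 of 10 (Cxcl1, Cxcl5 and Ccl2) were lower in all 4 sets and 0 were higher, against 4.42% and 3.89% of all genes. Under median centring or quantile normalization Cxcl1 left that count, and Cxcl5 and Ccl2 remained. For Hsp70 against normal glucose Ackr3 and Cxcl5 were higher and Cxcl12 and Ccl2 lower in every set, against 7.62% and 9.92% of all genes. Under quantile normalization Cxcl12 and Cxcl10 left the counts for high against normal glucose, and Cxcr4 and Ccl7 joined those for Hsp70 against normal glucose. An exact two-sided sign-flip test over sets cannot go below 0.25 with 3 sets or 0.125 with 4. Any gene with the same sign in every set stands at that smallest value by construction, so the test adds nothing to these counts.

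**Figure D4:**
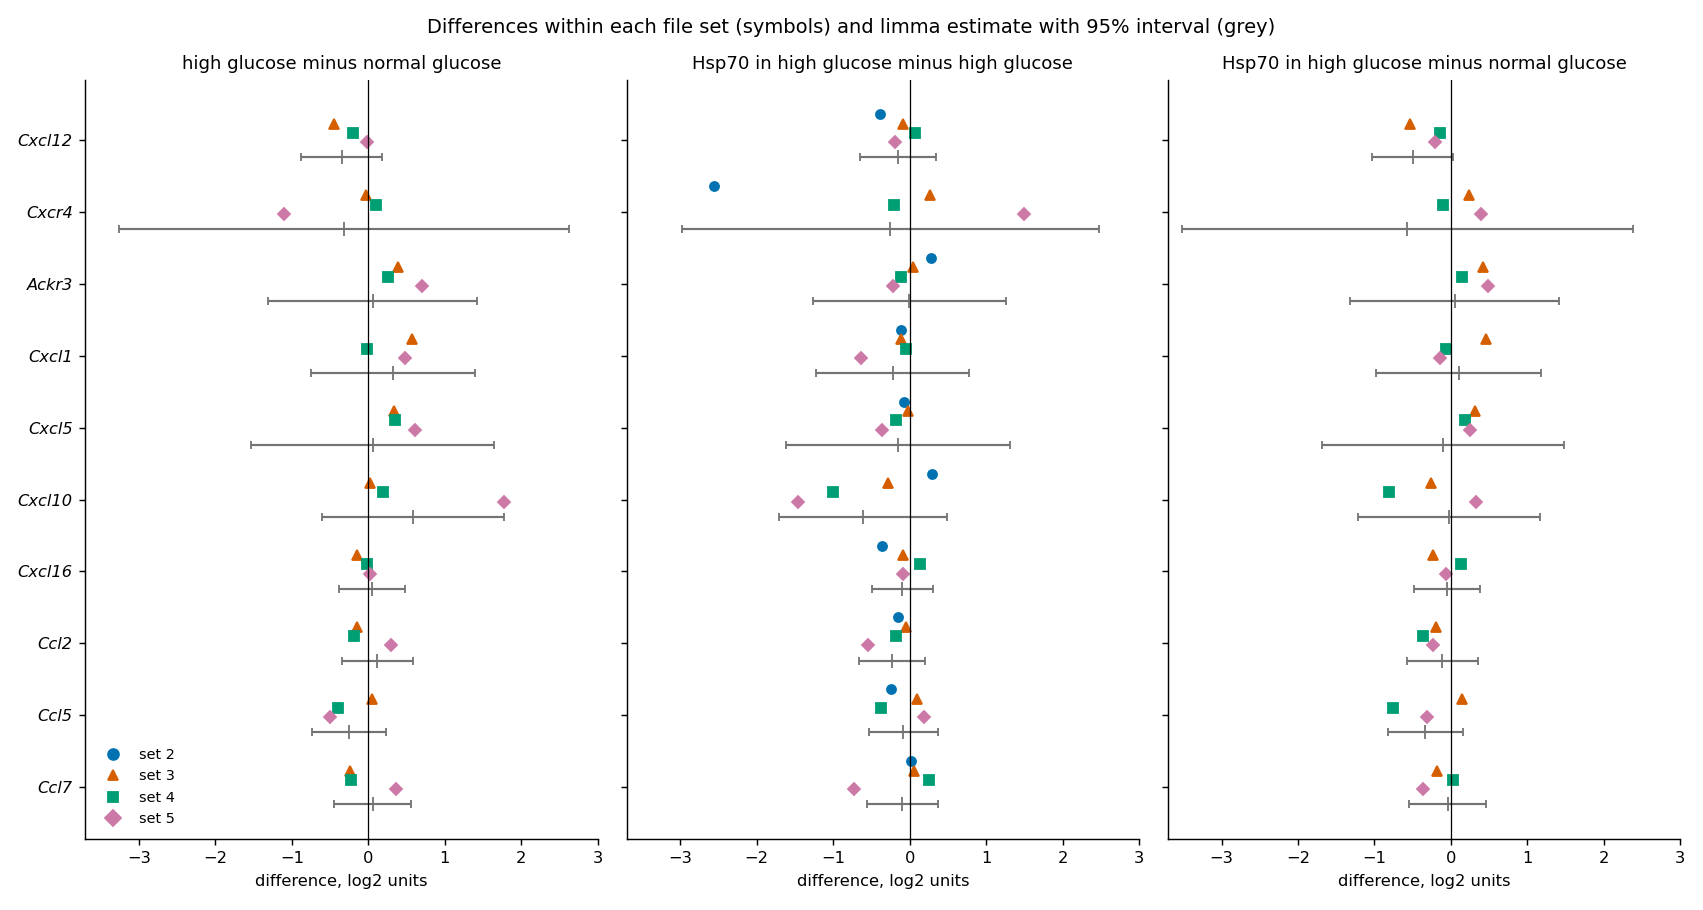
Log2 difference of each gene in the 3 comparisons, 1 symbol per file set, with the limma estimate and its 95% interval in grey below the symbols. Cxcl5 and Ackr3 lie right of 0 in sets 3, 4 and 5 in both comparisons with normal glucose, Cxcl12 lies left of 0 in them, and all grey intervals include 0.

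More of these genes were called different among file sets than among the groups. A limma F-test for differences among the 4 sets, with the group in the model, called 5 of 10 members, against 11.9% of all genes. These were Cxcl5 (adjusted p 5.11e-05), Ackr3 (0.000239), Cxcl1 (0.00134), Cxcr4 (0.0153) and Cxcl12 (0.0369). All 3 libraries of set 3 lay above all 8 others for Cxcr4, Ackr3, Cxcl1 and Cxcl5, 4 of 10 members against 8.14% of all genes, by a mean of 3.58, 1.67, 1.27 and 2.03 log2 units. They lay below all others for Cxcl10, 1 of 10 against 3.85%, by 1.33. For Cxcl12 set 2, which has no normal glucose library, was lowest, with levels of 12.43 and 12.81 against 13.00 or more elsewhere. Whether the call rests on set 2 was not tested. The adjusted p of Cxcl12 rose above 0.05 when any of 9 libraries was left out, reaching 0.228 without the Hsp70 library of set 2. That of Cxcr4 rose to 0.0967 without the high glucose library of set 3 and to 0.0897 without the Hsp70 library of set 3. Of the leukocyte markers 14 of 16 tested, and of the endothelial markers 11 of 14, also lay above all other libraries in set 3. So did 5 of 6 Schwann cell, 4 of 10 fibroblast and 3 of 9 mural cell markers. Below all others lay 11 of 17 interferon-stimulated genes, and 1 marker each of the fibroblast and mural cell lists. The part of any of these cell types or genes in the chemokine levels was not tested.

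Other chemokine ligands also differed among sets. Of 28 listed, 22 could be tested, 0 passed in any of the 3 group comparisons, and 12 were called among sets, against 11.9% of all genes. In set 3, 10 of the 22 lay above all other libraries and 1 below, against 8.14% and 3.85% of all genes. The macrophage chemokines Pf4 and Ccl6 had log2 levels of 6.54 to 6.90 and 9.67 to 9.86 in set 3, against 0.00 to 1.70 and 3.12 to 5.62 elsewhere. Cxcl3 and Cxcl2, which share Cxcr2 with Cxcl1 and Cxcl5, stood at 6.96 to 7.44 and 7.08 to 7.26, against 0.15 to 2.59 and 4.98 to 6.51. Cxcl14 stood at 10.94 to 11.04 against 7.89 to 8.63. Cxcl9, which like Cxcl10 is induced by interferon and binds Cxcr3, was lower in set 3, at 7.43 to 7.72 against 9.08 to 10.24. The most abundant of these ligands, the eosinophil attractant Ccl11, had a mean log2 level of 12.18 and did not pass the test among sets (adjusted p 0.676).

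For Hsp70 against high glucose 15 of the 22 other ligands lay below 0 and 7 above, with a median of -0.16 against 0.0029 over all genes tested. Ccl19, Ccl28, Cxcl13 and Cxcl14 were lower in all 4 sets, 4 of 22 against 4.42% of all genes. Of these, Ccl19 was low, with log2 levels of 1.81 to 3.75 in set 3 and of 0.00 to 3.87 elsewhere. Cxcl13, a B cell attractant, was lower by 1.10, 0.61, 0.63 and 0.32 in sets 2 to 5, and Cxcl14 by 0.15, 0.09, 0.04 and 0.30. For high against normal glucose 14 of 22 lay below 0, with a median of -0.12, and for Hsp70 against normal glucose 19 of 22, with a median of -0.23.

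Receptors for these ligands were measured as well. Of 21 other chemokine receptors 18 could be tested and 0 passed in any group comparison. The highest were Cxcr2, the receptor of Cxcl1 and Cxcl5, with a mean log2 level of 8.65, the scavenger Ackr4 at 7.84, the Cxcl16 receptor Cxcr6 at 7.31 and Ccr4 at 7.21. Cxcr3, the receptor of Cxcl10, was listed at 0 in every library. Ccr2, the receptor of Ccl2 and Ccl7, had log2 levels of 3.54 to 4.81 in set 3 and 0.09 to 2.92 elsewhere. High glucose exceeded normal glucose within sets 3, 4 and 5 for 3 of the 18 receptors (Ccr2, Ccr7 and Ackr4), against 11.3% of all genes, and was lower for 3 (Ccr1, Cx3cr1 and Xcr1), against 14.3%. Of these, Ccr7 was near the limit of detection, with log2 levels of 0.00 to 1.82 in set 3 and of 0.00 to 1.65 elsewhere. With Hsp70, Ccr2 and Ackr4 exceeded normal glucose in every set, against 7.62% of all genes, and 0 of 18 were lower. Ccr2 was above normal glucose by 1.27, 1.68 and 1.65 in sets 3, 4 and 5 without Hsp70 and by 0.65, 2.24 and 1.39 with it, at the low levels given above. The scavenger Ackr4 was above it by 0.42, 0.71 and 0.60 without Hsp70 and by 0.26, 0.60 and 0.72 with it. The pooled difference of Ackr4 in high from normal glucose was 0.38 (SE 0.493, limma adjusted p 1).

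Enzymes and signal partners of chemokines were tested as well, 14 of 14, and none passed in any group comparison. The Cxcl12-cleaving proteases Mmp2 and Mmp14 had mean log2 levels of 14.57 and 14.42, and Gnai2, the G protein subunit of chemokine receptors, was at 13.77. High glucose was below normal glucose in every set for 3 of the 14 (Adam17, Mif and Mmp2), against 14.3% of all genes, and above it for 2 (Arrb1 and Arrb2), against 11.3%. Adam17, a sheddase, was lower by 0.18 in each of sets 3, 4 and 5, Mif, a cytokine that binds Cxcr4, by 0.36, 0.24 and 0.27, and Mmp2 by 0.10, 0.18 and 0.01. The arrestins Arrb1 and Arrb2 were higher by 0.26, 0.07 and 0.11 and by 0.23, 0.51 and 1.31. Among NF-kB targets other than chemokines 10 of 12 lay below 0 for Hsp70 against high glucose, with a median of -0.05 against 0.0029, and 0 passed. The NF-kB inhibitor Tnfaip3 was the 1 of 12 that was lower in all 4 sets, against 4.42% of all genes, by 0.18, 0.07, 0.25 and 0.34.

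Some members moved together across libraries. The Pearson correlation of Ackr3 with Cxcl5 was 0.988 over 11 libraries and 0.948 over the 8 outside set 3. Ccl2 and Ccl7 correlated at 0.747 and 0.887. Cxcl1 correlated with Ccl7 at 0.495 and with Ccl2 at -0.02 over all libraries, and at 0.918 and 0.875 outside set 3, where its level was not raised. These are descriptions, given without p, because libraries of 1 set are not known to be independent.

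**Figure D5:**
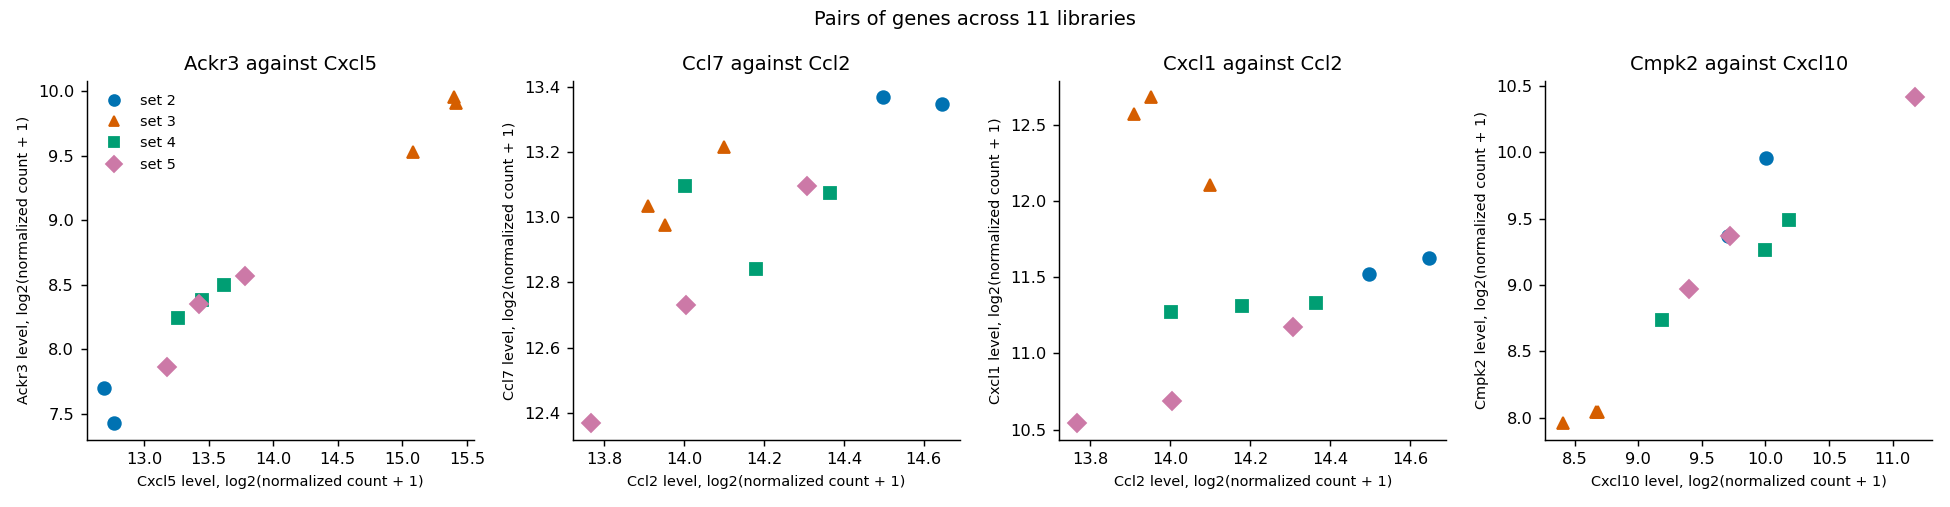
Level of 1 gene against that of another, as log2(normalized count + 1), in 4 pairs, 1 symbol per library, coloured by set. Ackr3 rises with Cxcl5 across all sets (r 0.988), Cxcl1 follows Ccl2 only outside set 3 (r 0.875 against -0.02 overall), and Cmpk2 follows Cxcl10 (r 0.964).

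Among the 9124 genes with a mean level at or above the median, those whose level correlated most with Cxcl10 over the 11 libraries were Cmpk2 (r 0.964), Rsad2 (r 0.945) and Ifi205 (r 0.918), all known as interferon-induced. Cmpk2 stood at 7.96 to 8.04 in set 3 and 8.74 to 10.41 elsewhere. The genes most like Cxcl12 were Vnn1 (r 0.945), a pantetheinase, Ptprs (r 0.939), a receptor phosphatase, and Zc3h7a (r 0.932). Those most like Ccl2 were Ncstn (r 0.953), a gamma-secretase subunit, Tmem55a (r 0.950) and Cdv3 (r 0.942).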

How the data were processed

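RNA extraction with Trizol and library preparation with a stranded SMARTer kit are stated in the labels' protocols. Each library has 1 deposited table of log2 values, taken here as log2(normalized count + 1) from their range and sums. TopHat, edgeR and mm10 appear in the submitters' processing notes. Versions, annotation, kind of normalization, strand setting and the treatment of multiply mapped reads: not given in the sources used here. Of 23282 rows, 44 repeats of a symbol were dropped, keeping the copy with the highest mean. Testing was limited to the 18248 genes that reached a normalized count of 1 in 3 or more libraries. It used limma 3.58.1 in R 4.3.3 (3 group means, trended and robust variance, Benjamini-Hochberg at 0.05). The group comparisons were also tried on simulated counts, which held no differences among sets, unlike these libraries. In the deposited data the median SE of a difference was 0.287, 0.265 and 0.287.

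File set served as a replicate block in an alternative fit. Same-set libraries deviated together for high and normal glucose (correlations 0.594, 0.302 and 0.285), but not in every set for the Hsp70 comparisons (lowest 0.059 and 0.022). Other alternatives were a block by title number, subsets of sets, other filters, scalings, pseudocount, variance settings and leaving out each library. All 10 members are named. Lists are given by counts, with at most 4 genes of highest level and any that pass. Genes named for moving alike in every set, or for their level in set 3, were chosen after their values were seen, as were the motif forms, after longer forms had been tried. The 3 genes most correlated with Cxcl12, Cxcl10 and Ccl2 are named. Members and lists were chosen with earlier results of these data known. Exon lengths and positions come from GENCODE M21, promoters from RefSeq (GRCm38.p6). Figures were drawn with matplotlib 3.10.9.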

Additional observations from a re-analysis of the deposited data

Results flagged for a closer look

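Each of the 10 members gives 2 groups of 4 libraries, without and with Hsp70, and 1 of these 20 held a library far from the others. Ccl5 had a log2 level of 5.74 in the high glucose library of set 5, below the other 3 high glucose libraries (6.05 to 6.06). Its gap to the nearest of them was 0.950 of the group's range, above the critical value of 0.829 for 4 values. Chance marks about 1 in 20 such groups.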

How the results depend on the processing

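No member passed the limma test in any comparison under any of 26 alternatives (780 values in all). Fits with file set as a replicate block together with subsets of sets were added after the data were seen. With the replicate block the count of genes called stayed at 0 in all 3 comparisons. The count went from 0 to 3 in both Hsp70 comparisons without the Hsp70 library of set 3, so its range over libraries left out was 0 to 3. The count of genes called among sets was 2165. It was 1396 without trend and robust estimates and 8529 with sample weights. Leaving out 1 library gave 614 (high glucose, set 3) to 5200 (Hsp70, set 4), with 915, 1023 and 1206 without the Hsp70 libraries of sets 3, 2 and 5, 1050 without normal glucose of set 5 and 1357 without high glucose of set 2. Cxcl12 and Cxcl10 for high against normal glucose, Ccl2 and Ccl5 for Hsp70 against high glucose, and Cxcl12 and Ccl5 for Hsp70 against normal glucose kept their sign throughout. Some alternatives, such as other filters or leaving out a library of the group not compared, cannot change an estimate. The other members, all uncalled, changed sign under some alternative, and the cause was not tested. With file set as a replicate block the sign changed for high against normal glucose Cxcr4 0.041, Cxcl16 -0.0022, Ccl2 -0.023 and Ccl7 -0.056, for Hsp70 against normal glucose Cxcl5 0.26. With that block and set 3 left out the sign changed for high against normal glucose Cxcr4 0.034, for Hsp70 against normal glucose Cxcl1 -0.065, Cxcl5 0.24 and Cxcl10 0.0095. In sets 3, 4 and 5 only, with or without that block the sign changed for high against normal glucose Cxcl16 -0.046, Ccl2 -0.010 and Ccl7 -0.036, for Hsp70 against high glucose Cxcr4 0.52, for Hsp70 against normal glucose Cxcr4 0.17 and Cxcl5 0.25. In sets 2 and 3 only the sign changed for high against normal glucose Ackr3 -0.86, Cxcl5 -0.99, Ccl5 0.050 and Ccl7 -0.056, for Hsp70 against high glucose Ackr3 0.16, Cxcl10 0.0096 and Ccl7 0.040, for Hsp70 against normal glucose Ackr3 -0.70, Cxcl1 -0.063, Cxcl10 0.54 and Ccl2 0.10. In sets 4 and 5 only the sign changed for Hsp70 against high glucose Cxcr4 0.65 and Cxcl16 0.028, for Hsp70 against normal glucose Cxcr4 0.15, Cxcl1 -0.10, Cxcl5 0.21 and Cxcl16 0.032. With set 3 left out the sign changed for Hsp70 against normal glucose Ccl7 0.042. Under quantile normalization the sign changed for Hsp70 against high glucose Ackr3 0.0073. Under median centring the sign changed for Hsp70 against high glucose Ackr3 0.0054. With a pseudocount of 10 the sign changed for Hsp70 against high glucose Cxcr4 0.010. With sample weights the sign changed for high against normal glucose Cxcr4 0.30 and Cxcl16 -0.076, for Hsp70 against high glucose Cxcr4 0.63, Ackr3 0.19 and Cxcl5 0.11, for Hsp70 against normal glucose Cxcr4 0.93 and Cxcl5 0.45. With title number as a replicate block the sign changed for Hsp70 against normal glucose Ccl7 0.054. Leaving out 1 library at a time gave signs of both kinds, with these ranges: for high against normal glucose Cxcr4 -1.16 to 0.79, Ackr3 -0.38 to 0.55, Cxcl1 -0.023 to 0.69, Cxcl5 -0.45 to 0.68, Cxcl16 -0.046 to 0.15, Ccl2 -0.010 to 0.22 and Ccl7 -0.080 to 0.16, for Hsp70 against high glucose Cxcl12 -0.28 to 0.057, Cxcr4 -1.26 to 0.58, Ackr3 -0.46 to 0.43, Cxcl1 -0.59 to 0.11, Cxcl5 -0.71 to 0.35, Cxcl16 -0.23 to 0.0033 and Ccl7 -0.23 to 0.10, for Hsp70 against normal glucose Cxcr4 -1.57 to 0.54, Ackr3 -0.40 to 0.54, Cxcl1 -0.27 to 0.47, Cxcl5 -0.65 to 0.52, Cxcl10 -0.37 to 0.30, Cxcl16 -0.19 to 0.056 and Ccl7 -0.18 to 0.16. By number in the title, libraries did not deviate together (correlations -0.357 to 0.137 with normal glucose). Levels near a normalized count of 1, as for Cxcr4, limit what these libraries can show.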
